A study of Rattus norvegicus with 12 samples.

Results

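The metabotropic glutamate receptor genes Grm2, Grm3, Grm4, Grm5, Grm7 and Grm8 and the scaffold genes Homer2, Homer3 and Shank3 were followed across 12 single-colour expression arrays of rat striatum. They were chosen by name. They are 9 genes with 11 probes, of 30367 probes on the array and of 19412 features tested. Grm4 and Shank3 had 2 probes each, and every one of the 11 probes was well above background on all 12 arrays, with none saturated.

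In all male Wistar rats the neurotoxin 6-hydroxydopamine had been injected into the left medial forebrain bundle, through which midbrain dopamine axons run. Only rats with 7 or more turns per minute under methamphetamine (3 mg/kg) were used. The 4 groups, of 3 arrays each, were lesioned striatum given both drugs (zonisamide, 50 mg/kg, on top of L-DOPA, 100 mg/kg), lesioned striatum given that L-DOPA dose alone, saline-treated lesioned striatum, and the non-lesioned striatum of saline-treated rats. Injections were daily for 7 days. L-DOPA, the precursor of dopamine, came after benserazide, which blocks its conversion outside the brain, and the anticonvulsant zonisamide came 30 min after L-DOPA. All groups came from toxin-injected rats, so the non-lesioned side is the opposite hemisphere of a lesioned animal, and the labels do not say whether both saline groups share animals. No group received zonisamide alone, and the age of the rats is not given in the sources used here.

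Metabotropic glutamate receptors are G protein-coupled receptors. Group I, which includes Grm5, acts mainly through Gq and phospholipase C at the postsynaptic side. Group II (Grm2, Grm3) and group III (Grm4, Grm6, Grm7, Grm8) act mainly through Gi and Go, lower adenylyl cyclase activity and often sit on axon terminals, where they reduce transmitter release. Homer proteins bind the tails of group I receptors and link them to Shank proteins, the scaffolds of the postsynaptic density. In the striatum these receptors tune the input from cortex and the output of the spiny projection neurons.

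Levels are log2 ratios of a signal to the 75th percentile of its array, so a level of 0 equals that percentile and a difference of 1 is a doubling. That percentile lay between 793 and 1737 intensity units, and the share of probes well above background ran from 67.7% to 74.0%. Of 12 spiny neuron markers 11 were tested, among them Ppp1r1b and Drd2, which were above background on all 12 arrays. Slc17a7, the vesicular glutamate transporter of cortical neurons, was above background on 3 of 12 arrays, 1 in each lesioned group, and was not tested. Its highest levels were -5.10 (both drugs, replicate 1), -4.60 (L-DOPA, replicate 1) and -6.08 (lesioned saline, replicate 2). Of 10 cortical neuron markers 5 were tested, among them Neurod2, a transcription factor of cortical projection neurons, above background on 12 of 12 arrays. The summed linear signal of these 5 ran from 1.02 to 1.20 with both drugs and from 0.914 to 1.21 with L-DOPA. It ran from 0.719 to 1.03 in lesioned saline and from 0.505 to 1.16 on the non-lesioned side. Lamp5 was on average the brightest of the 5 and weighs most in these sums. By array, Neurod6 read -2.71, -6.91 and -5.80 with both drugs and -2.50, -6.20 and -6.23 with L-DOPA. Its levels were -5.56, -4.04 and -6.27 in lesioned saline and -6.39, -6.35 and -6.94 on the non-lesioned side. Replicate 1 of both drugs stood apart in markers of thalamic or other subcortical neurons: the 3 tested summed to 8.29 there, 0.308 and 0.318 in the other arrays with both drugs, and at most 0.930 on any other array. For Grm2, Grm4, Grm5, Grm7 and Grm8, values without this array are therefore given as well. Choroid plexus markers varied widely within groups: their summed linear signal ran from 7.08 to 109 with both drugs, from 20.8 to 172 with L-DOPA, from 1.17 to 21.3 in lesioned saline and from 5.64 to 136 on the non-lesioned side. In bulk tissue, fewer cells of a type and less RNA per cell cannot be told apart. With 3 arrays a group, their number limits the precision of every value.

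Position on the array touched 3 of the genes. The probes standing for Grm3, Grm5 and Shank3 each had 1 of their 2 spots in the 2 outermost rows or columns, called edge spots below. Over all probes with 1 edge and 1 inner spot, the median log2 difference of edge minus inner spot ran from -0.86 to -0.04 by array, and its cause was not tested. The Shank3 edge spot was dimmer than the inner one on 12 of 12 arrays, that of Grm3 on 10 and that of Grm5 on 6. The gap reached 4.14 for Grm3 (L-DOPA, replicate 3), 4.05 for Shank3 (non-lesioned side, replicate 3) and 3.31 for Grm5 (non-lesioned side, replicate 1). Values of these 3 genes are therefore given from both spots and from the inner spot.

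**Figure D1:**
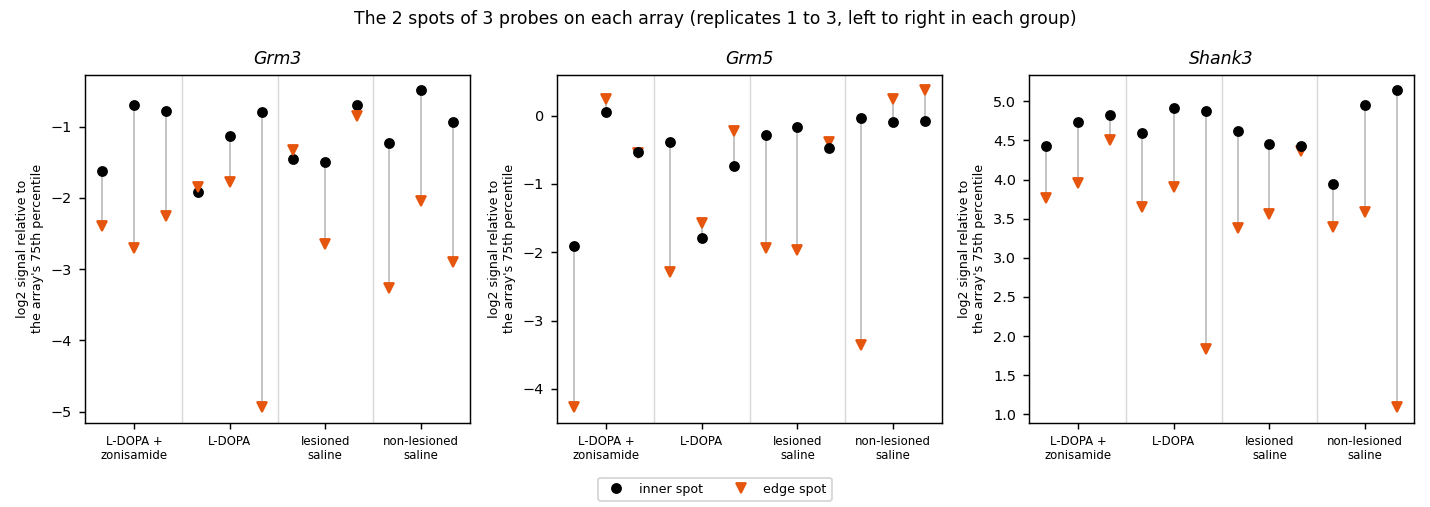
Both spots of the probes for Grm3, Grm5 and Shank3 on each of the 12 arrays; the y axis is log2 signal relative to the array's 75th percentile, black circles are inner spots, orange triangles edge spots, and a grey line joins the spots of 1 array. The widest gap is 4.14 for Grm3, and the inner Shank3 spots lie between 3.94 and 5.14 while its edge spots lie between 1.09 and 4.51.

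None of the 9 genes passed an adjusted p of 0.05 in any of the 4 comparisons (limma, Benjamini-Hochberg over 19412 features). In lesioned against non-lesioned saline, 0% of all features passed. For L-DOPA against lesioned saline 0.433% passed, for zonisamide added to L-DOPA 0.479%, and for both drugs against lesioned saline 0%. At an unadjusted p under 0.05, 0 of 9 genes passed in the lesion comparison beside 8.48% of features. By the probe standing for each gene, Grm4 alone passed with L-DOPA beside 11.3% of features and with zonisamide added beside 12.4%. Grm7 alone passed with both drugs beside 7.34%. The other Shank3 probe, described below, also passed with L-DOPA (unadjusted p = 0.0265, limma). In the zonisamide comparison the replicate numbers pair the arrays, and with the replicate as a block 13 features passed in place of 93, again with 0 of the 9 genes.

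By the probe standing for each gene, groups without overlap were found for 1 gene per comparison. These were Grm8 for the lesion, Grm4 for L-DOPA, Grm4 for zonisamide and Grm7 for both drugs. The groups of the other Shank3 probe also did not overlap for L-DOPA and for zonisamide. Over all features the groups did not overlap for 17.0%, 22.4%, 17.3% and 18.1% in the same order of comparisons. When zonisamide was added, 1 of the 9 genes had a change below 0, against 53.8% of all features, with a median log2 change of 0.33 over the 9 and -0.03 over all. Among the changes above 0, those of Grm5 (0.01 ± 0.78, SE) and Homer2 (0.01 ± 0.34) could not be told from 0. With edge spots left out, 2 of the 9 were below 0 and the median was 0.25. Without replicate 1 of both drugs, Homer2 (-0.33) and Homer3 (-0.22) were the genes below 0. Changes below 0 were found for 4 of 9 genes after the lesion (44.6% of features), for 6 after L-DOPA (53.3%) and for 3 after both drugs (56.5%).

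**Figure D2:**
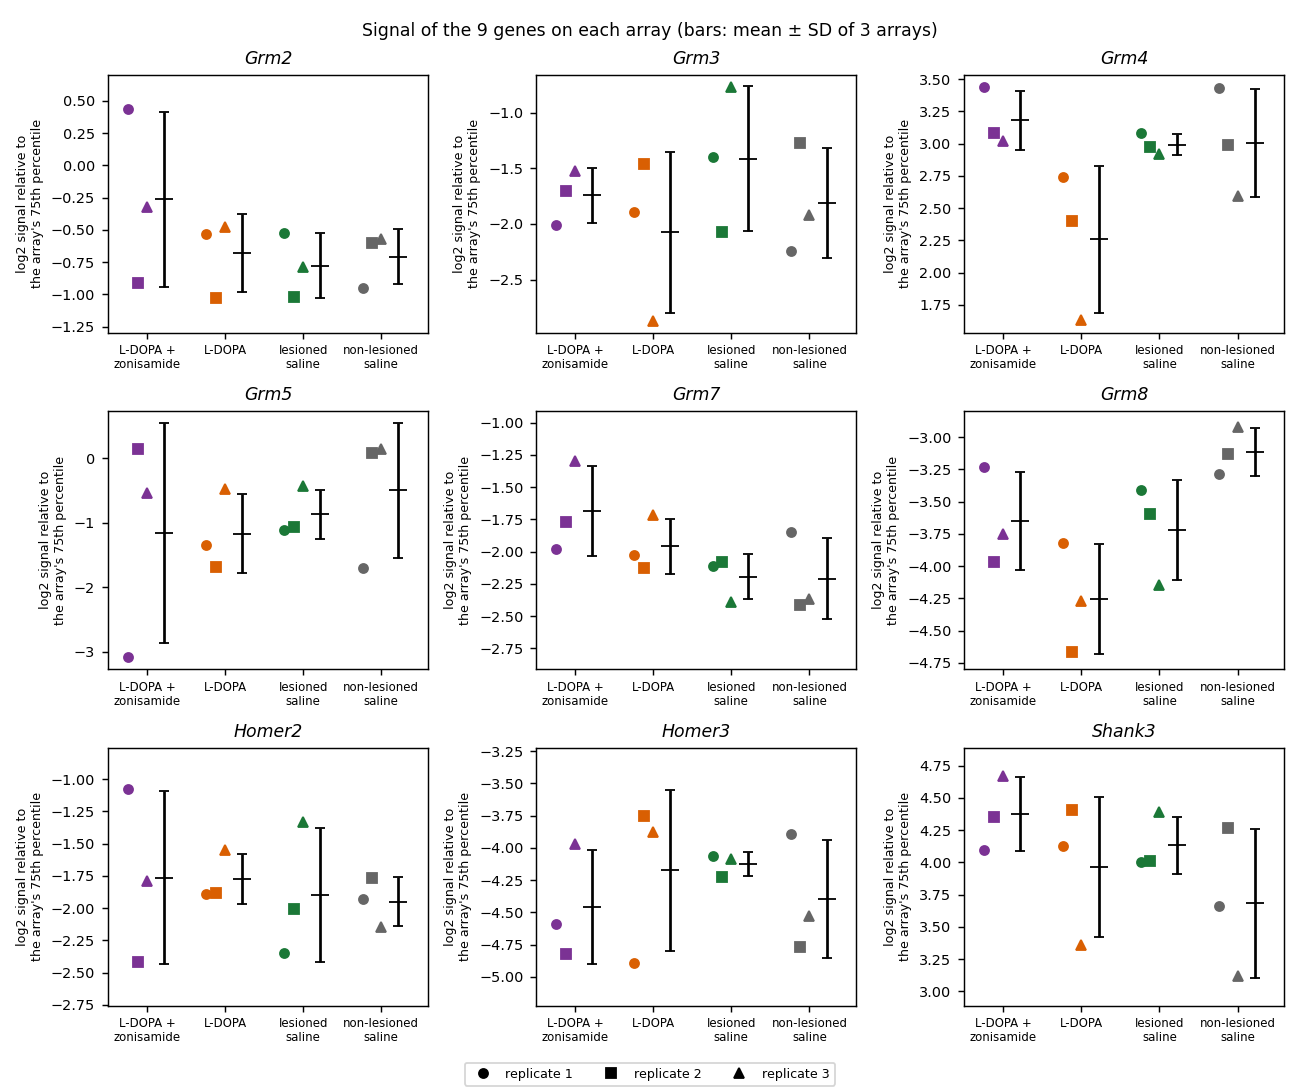
Log2 signal relative to the array's 75th percentile (y axis) of the 9 genes on each array, by group on the x axis; symbols mark replicates 1 to 3 and bars the mean ± SD of 3 arrays, with both spots of a probe averaged. Grm4 is lowest with L-DOPA, at a mean of 2.25, and Grm8 is highest on the non-lesioned side, at -3.11.

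Grm4 encodes mGlu4, the group III receptor found on striatopallidal terminals, the endings of indirect-pathway spiny neurons. The probe standing for it (A_64_P163070, 1 spot) stood at 3.44, 3.08 and 3.02 with L-DOPA and zonisamide and at 2.74, 2.40 and 1.63 with L-DOPA alone. It stood at 3.08, 2.97 and 2.92 in lesioned saline and at 3.43, 2.99 and 2.59 on the non-lesioned side. All 3 arrays with L-DOPA alone were below all arrays of both other lesioned groups, while 1 non-lesioned array, at 2.59, lay among them.

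With zonisamide added, the log2 change of Grm4 was 0.93 ± 0.29 (SE, limma), or 1.90-fold, with a 95% interval of 0.28 to 1.57 and an adjusted p of 0.221. Grm4 was higher with zonisamide on each of the 3 slides that held both groups, by 0.71, 1.39 and 0.68. The 1.39 came from replicate 3 of each group, the 2 arrays with the lowest 75th percentile (793 with both drugs, 863 with L-DOPA). With the replicate as a block the adjusted p was 0.133, and over the alternatives run it lay between 0.0709 and 0.535. For L-DOPA against lesioned saline the change was -0.74 ± 0.29 (adjusted p = 0.371), and within the slides that held both groups it was -0.34 and -0.57. Without replicate 1 of both drugs the zonisamide change was 0.79. The change for L-DOPA was -0.42 without replicate 3 of that group and that for zonisamide was 0.61. Both comparisons use the same 3 L-DOPA arrays.

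The other Grm4 probe (A_43_P15406, 2 spots) also had its lowest mean with L-DOPA alone, and 1 non-lesioned array, at 2.12, lay among its L-DOPA values. It read 3.07, 2.78 and 2.50 with both drugs and 2.15, 2.02 and 0.97 with L-DOPA alone. Its levels were 2.54, 2.68 and 2.45 in lesioned saline and 2.91, 2.59 and 2.12 on the non-lesioned side. Over the 12 arrays both probes had a Pearson r of 0.98, as a description of 1 gene read on the same arrays. Its log2 change was 1.07 ± 0.32 for zonisamide (adjusted p = 0.189) and -0.84 ± 0.32 for L-DOPA (adjusted p = 0.356). On replicate 3 of L-DOPA its spots read -0.03 and 1.98, and on replicate 3 of both drugs 3.25 and 1.75. On the second spot that last array lay below all 3 L-DOPA arrays (2.17, 1.90 and 1.98), so the groups overlapped there. This spot averaged 2.48 with both drugs and 2.01 with L-DOPA, and the first 3.09 and 1.41.

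**Figure D3:**
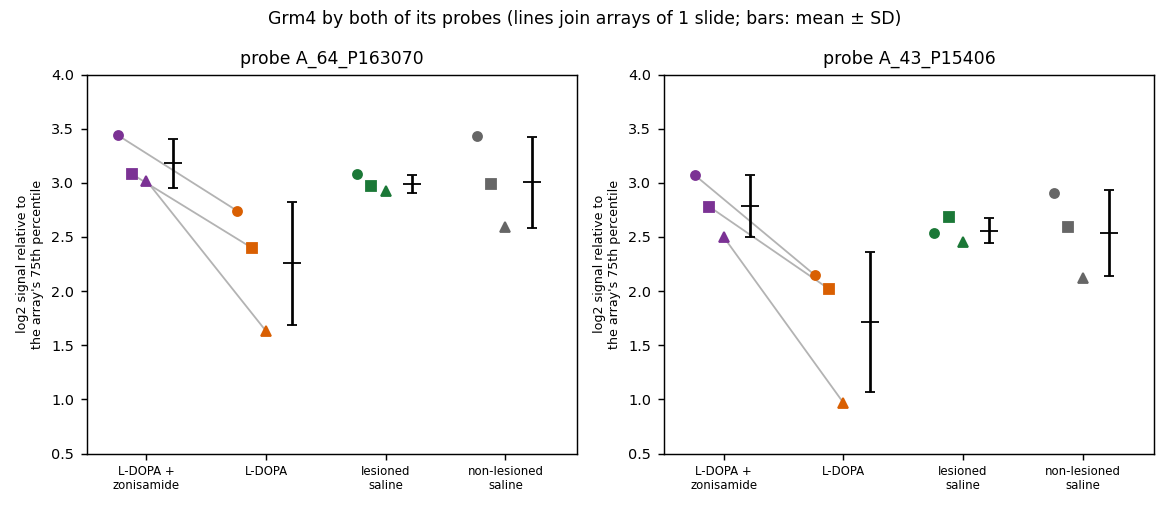
Log2 signal relative to the array's 75th percentile (y axis) of Grm4 by each of its probes, by group; points are arrays, grey lines join arrays of 1 slide in both drug groups, and bars are the mean ± SD of 3 arrays. In both panels, with the spots of a probe averaged, every L-DOPA array lies below every array with L-DOPA and zonisamide.

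Markers of other cells were read in the same comparisons. With zonisamide added, 6 of 6 vascular markers had changes below 0, and their summed signal ran from 2.14 to 2.51 with both drugs and from 3.81 to 4.89 with L-DOPA alone. All 4 blood markers and all 9 choroid plexus markers also had changes below 0, while 5 of 11 spiny neuron markers had changes above 0. For L-DOPA against lesioned saline, 9 of 9 choroid plexus changes were above 0. With the level of Ttr, the main choroid plexus transcript, as a covariate, the Grm4 change was 0.78 for zonisamide and -0.38 for L-DOPA. Over the 12 arrays, which share slides and groups, the Grm4 level had a Pearson r of -0.72 with the blood markers, -0.60 with the choroid plexus markers, -0.56 with the vascular markers and 0.73 with the interneuron markers. Of 7 tested interneuron markers 6 had changes above 0 with zonisamide added and 6 below 0 for L-DOPA. Their mean log2 level ran from 0.54 to 0.81 with both drugs, from 0.43 to 0.55 with L-DOPA and from 0.86 to 1.03 in lesioned saline. Their summed signal ran from 44.3 to 53.8, from 42.1 to 56.9 and from 53.1 to 57.4 in the same groups. Gad1, a GABA synthesis gene not limited to interneurons, was on average the brightest of the 7 and weighs most in these sums. It was the 1 with a change below 0 when zonisamide was added (-0.44). The part of the vascular, blood and interneuron markers in the Grm4 values was not tested.

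Grm8, which encodes the group III receptor mGlu8, had its highest mean on the non-lesioned side. It stood at -3.23, -3.97 and -3.75 with both drugs and at -3.82, -4.67 and -4.27 with L-DOPA alone. Lesioned saline read -3.41, -3.60 and -4.15, and the non-lesioned side -3.29, -3.13 and -2.92. The lesioned and non-lesioned saline arrays did not overlap.

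For the lesion the log2 change of Grm8 was -0.61 ± 0.28 (95% interval -1.23 to 0.02, adjusted p = 0.588). On the 1 slide that held both saline groups it was -0.12, and with slide as a fixed block it was -0.14. It was -0.53 ± 0.28 for L-DOPA (adjusted p = 0.520) and 0.60 ± 0.28 for zonisamide (adjusted p = 0.426), with 0.59, 0.51 and 0.69 on the 3 slides and 0.39 without replicate 1 of both drugs. Its 2 spots read -4.93 and -3.02 on replicate 2 of both drugs and -2.91 and -4.72 on replicate 1 of L-DOPA. The first spot averaged -3.96 with both drugs and -4.02 with L-DOPA, and the second -3.35 and -4.48. The zonisamide change therefore rests mainly on the second spot. On the first, both drugs read lower than L-DOPA for replicates 1 (-3.28 against -2.91) and 2 (-4.93 against -4.72). It read higher for replicate 3 (-3.65 against -4.42). With the brightest spot alone the L-DOPA change was -0.27 ± 0.39 (adjusted p = 0.842). In the lesion comparison all 6 vascular markers had changes above 0, with sums from 3.10 to 4.11 in lesioned saline and from 2.40 to 3.03 on the non-lesioned side, and all 9 choroid plexus markers had changes below 0. All 6 microglia markers also had changes above 0, with sums from 15.2 to 21.8 in lesioned saline and from 12.2 to 17.7 on the non-lesioned side. Over the 12 arrays Grm8 had a Pearson r of -0.71 with the microglia, -0.63 with the vascular and -0.22 with the choroid plexus markers. The part of these 3 lists in the Grm8 values was not tested. A further comparison, added after the data were seen, set L-DOPA against the non-lesioned side. There the Grm8 change was -1.14 ± 0.28 (adjusted p = 0.0912, from 0.0533 to 0.290 over the alternatives run). The change itself ranged from -1.36 to -0.49 over them and was -0.49 with normexp background correction. The groups had no overlap, where 18.9% of features had none and 1.16% passed the adjusted threshold. Both drugs against the non-lesioned side gave -0.54 ± 0.28 with overlapping groups, where 7.19% of features had no overlap and 0% passed.

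Grm7, the presynaptic group III receptor with low affinity for glutamate, had its highest mean with both drugs. It read -1.98, -1.77 and -1.30 there, -2.03, -2.13 and -1.72 with L-DOPA alone, -2.11, -2.08 and -2.39 in lesioned saline, and -1.85, -2.41 and -2.37 on the non-lesioned side. All arrays with both drugs were above all lesioned saline arrays, by a narrow margin between the nearest of them. The log2 change of both drugs against lesioned saline was 0.51 ± 0.22 (95% interval 0.01 to 1.01, adjusted p = 0.670, limma). On the slides that held both groups it was 0.13 and 0.30, without replicate 3 of both drugs 0.32, and without replicate 1 of both drugs 0.66. All 6 vascular markers had changes below 0 in that comparison, with sums from 2.14 to 2.51 with both drugs and from 3.10 to 4.11 in lesioned saline. All 6 microglia markers also had changes below 0, with sums from 11.8 to 16.5 with both drugs and from 15.2 to 21.8 in lesioned saline, and all 9 choroid plexus markers had changes above 0. Over the 12 arrays Grm7 had a Pearson r of 0.02 with the vascular, -0.08 with the microglia and 0.11 with the choroid plexus markers. The part of these 3 lists in the Grm7 values was not tested. Its change was 0.01 after the lesion, 0.23 after L-DOPA and 0.28 with zonisamide added.

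The group II receptors showed no separation of groups. Grm2, a presynaptic receptor whose striatal protein lies largely on cortical axons, averaged -0.26 ± 0.68 with both drugs, -0.68 ± 0.31 with L-DOPA, -0.78 ± 0.25 in lesioned saline and -0.71 ± 0.21 on the non-lesioned side (SD, n = 3 each). Replicate 1 of both drugs, at 0.44, was the highest array, and it is the array with the high thalamic or other subcortical markers. The log2 change of Grm2 for zonisamide was 0.41 ± 0.31 (adjusted p = 0.661) and was 0.06 without that array. For both drugs it was 0.51, and 0.16 without it. Over the 12 arrays Grm2 had a Pearson r of 0.76 with those markers and 0.52 with the cortical neuron markers. The r of 0.76 includes that 1 array, where the mean log2 level of those markers was 0.65, against at most -1.96 elsewhere. Its value without that array was not computed. The mean log2 level of the cortical markers was -2.55, -4.24 and -3.70 on replicates 1 to 3 of both drugs. Their summed signal there was 1.02, 1.19 and 1.20. On replicate 1 of L-DOPA, where Grm2 read -0.53, their mean log2 level was -2.36.

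Grm3, made by astrocytes as well as neurons, averaged -1.74 ± 0.25 with both drugs, -2.07 ± 0.73 with L-DOPA, -1.41 ± 0.65 in lesioned saline and -1.81 ± 0.49 on the non-lesioned side (SD, n = 3 each) from both spots. From the inner spot alone the same groups averaged -1.03 ± 0.51, -1.28 ± 0.58, -1.22 ± 0.46 and -0.88 ± 0.37. The direction of 2 comparisons turned with the edge spot left out. The lesion change was 0.40 ± 0.42 with both spots and -0.34 ± 0.37 with the inner spot, and that of both drugs was -0.33 ± 0.42 and 0.19 ± 0.37. For L-DOPA it was -0.66 ± 0.42 with both spots and -0.06 ± 0.37 with the inner one.

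Grm5, the main group I receptor of spiny neurons, had the largest SE of the 9. From both spots it ranged from -3.09 (both drugs, replicate 1) to 0.15 (both drugs, replicate 2), that is, the extremes fell in 1 group. The lowest array is again the one with the high thalamic or other subcortical markers. Over the 12 arrays Grm5 had a Pearson r of -0.59 with those markers and -0.58 with the cortical neuron markers. In the first of these, that array held both extremes. The mean log2 level of its subcortical markers was 0.65, and at most -1.96 on any other array. The r without it was not computed. Without replicate 1 of both drugs the Grm5 change was 0.97 for zonisamide, against 0.01 with it, and 0.67 for both drugs, against -0.29. Inner spots read -1.91, 0.05 and -0.53 with both drugs and -0.39, -1.79 and -0.73 with L-DOPA alone. They read -0.28, -0.17 and -0.48 in lesioned saline and -0.04, -0.09 and -0.08 on the non-lesioned side. The inner spots of the 2 saline groups did not overlap, although their means differed by -0.24 ± 0.47 (adjusted p = 0.912). The SE of every Grm5 change was 0.78 with both spots and 0.47 with the inner one, so the 95% interval for zonisamide ran from -1.73 to 1.74 with both spots and from -0.86 to 1.21 with the inner one.

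Among the scaffolds, Shank3, the postsynaptic density scaffold tied to Homer proteins, depended most on the spot used. With both spots of the probe standing for it (A_64_P060677) it averaged 4.37 ± 0.29 with both drugs, 3.97 ± 0.54 with L-DOPA, 4.13 ± 0.22 in lesioned saline and 3.68 ± 0.58 on the non-lesioned side (SD, n = 3 each). Inner spots read 4.43, 4.74 and 4.83 with both drugs, 4.60, 4.92 and 4.88 with L-DOPA, 4.62, 4.46 and 4.43 in lesioned saline, and 3.94, 4.95 and 5.14 on the non-lesioned side. The groups overlapped in every comparison by either reading.

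With the inner spot the Shank3 change turned in 3 comparisons. It was -0.18 ± 0.28 for the lesion against 0.45 ± 0.33 with both spots, 0.30 ± 0.28 for L-DOPA against -0.17 ± 0.33, and -0.13 ± 0.28 for zonisamide against 0.40 ± 0.33. The largest adjusted p among these inner-spot values was 0.899 and the smallest 0.731. The other Shank3 probe (A_64_P060682), with 2 inner spots, read -3.45, -3.31 and -3.13 with both drugs, -3.47, -3.74 and -3.77 with L-DOPA, -3.16, -3.39 and -2.76 in lesioned saline, and -3.00, -3.06 and -3.60 on the non-lesioned side. Its L-DOPA arrays were below all lesioned saline arrays, with a change of -0.56 ± 0.22 (adjusted p = 0.366). Its arrays with both drugs were above all L-DOPA arrays, with a change of 0.37 ± 0.22 (adjusted p = 0.548). Its signs for L-DOPA and for zonisamide were opposite to those of the inner spot of A_64_P060677. Both probes had a Pearson r of 0.42 over the 12 arrays, as a description.

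Homer2 and Homer3 encode long Homer forms that can cross-link receptors and Shank. Homer2 averaged -1.76 ± 0.67 with both drugs, -1.78 ± 0.19 with L-DOPA, -1.90 ± 0.52 in lesioned saline and -1.95 ± 0.19 on the non-lesioned side. Homer3 averaged -4.46 ± 0.44, -4.18 ± 0.62, -4.13 ± 0.09 and -4.40 ± 0.46 in the same groups (SD, n = 3 each). All groups of both genes overlapped. Changes of Homer2 lay between 0.01 and 0.13 and those of Homer3 between -0.33 and 0.27, each with an SE of 0.34. The 95% interval of the Homer2 change with zonisamide added ran from -0.74 to 0.77. On the third non-lesioned array Homer3 rests on 1 spot, since the other carried an outlier flag.

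**Figure D4:**
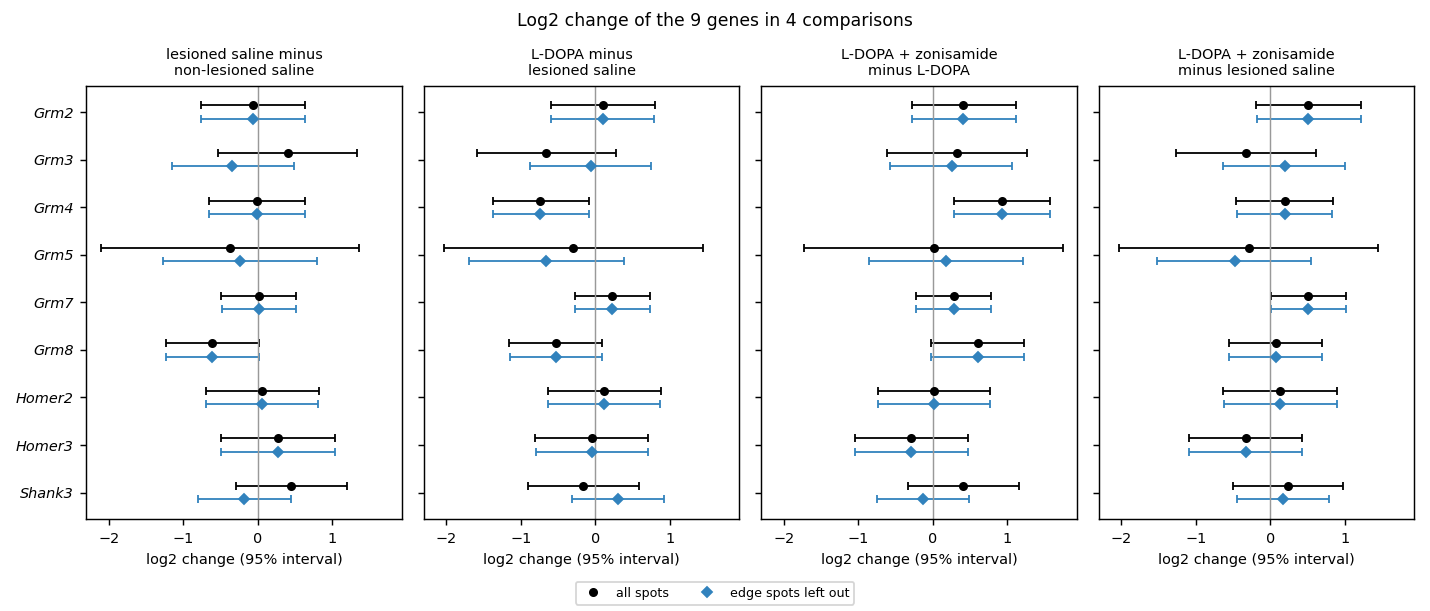
Log2 change (x axis) with its 95% interval for the 9 genes in 4 comparisons, from all spots (black circles) and with edge spots left out (blue diamonds). Intervals that exclude 0 before adjustment are those of Grm4 for L-DOPA (-1.38 to -0.09) and zonisamide (0.28 to 1.57) and of Grm7 for both drugs (0.01 to 1.01).

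In the order of group means, most neighbours overlapped. The only neighbouring groups without overlap were lesioned saline (2.99) and L-DOPA (2.25) for Grm4. Means with L-DOPA were the lowest of the 4 groups for Grm3, Grm4 and Grm8, and for Grm5 they equalled those with both drugs at -1.16; these orders were not tested beyond the comparisons above.

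The rest of the pathway was read from 64 other genes in 4 lists, of which 57 were tested, and none passed in any comparison. Of the other family genes, Homer1, whose long form links receptor and Shank and whose short form is induced by activity, had its largest value for L-DOPA, 0.28 ± 0.16 (adjusted p = 0.575). This probe was not assigned to either form. Over the 5 family genes the median change was 0.01 after the lesion, 0.05 after L-DOPA, 0.15 with zonisamide added and 0.09 after both drugs.

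Among 18 tested scaffold partners, Dlgap4, a linker between PSD-95 and Shank, had the smallest p, with 0.73 ± 0.29 for L-DOPA (adjusted p = 0.365). The neurexin Nrxn2 followed with 0.34 ± 0.16. The list had a median of -0.06 after the lesion, -0.13 after L-DOPA, 0.04 with zonisamide added and 0.01 after both drugs, and the medians of all features were 0.05, -0.03, -0.03 and -0.05.

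Among 17 tested group I effectors, Itpr3, an inositol trisphosphate receptor, had a change of 0.67 ± 0.29 for L-DOPA (adjusted p = 0.415). The median of this list was -0.23 for the lesion, with 12 of 17 changes below 0 against 44.6% of all features, and lay between -0.08 and 0.08 in the other comparisons.

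Among 17 tested effectors and partners of group II and III receptors, Rgs7, which speeds up GTP hydrolysis by Gi and Go, had the smallest p, for both drugs. It read -0.90, -0.96 and -0.91 with both drugs and -2.07, -1.45 and -1.78 in lesioned saline. The change was 0.84 ± 0.18 (adjusted p = 0.493, limma), and it was 0.60 ± 0.18 for L-DOPA alone (adjusted p = 0.222). List medians lay between -0.06 and -0.01.

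**Figure D5:**
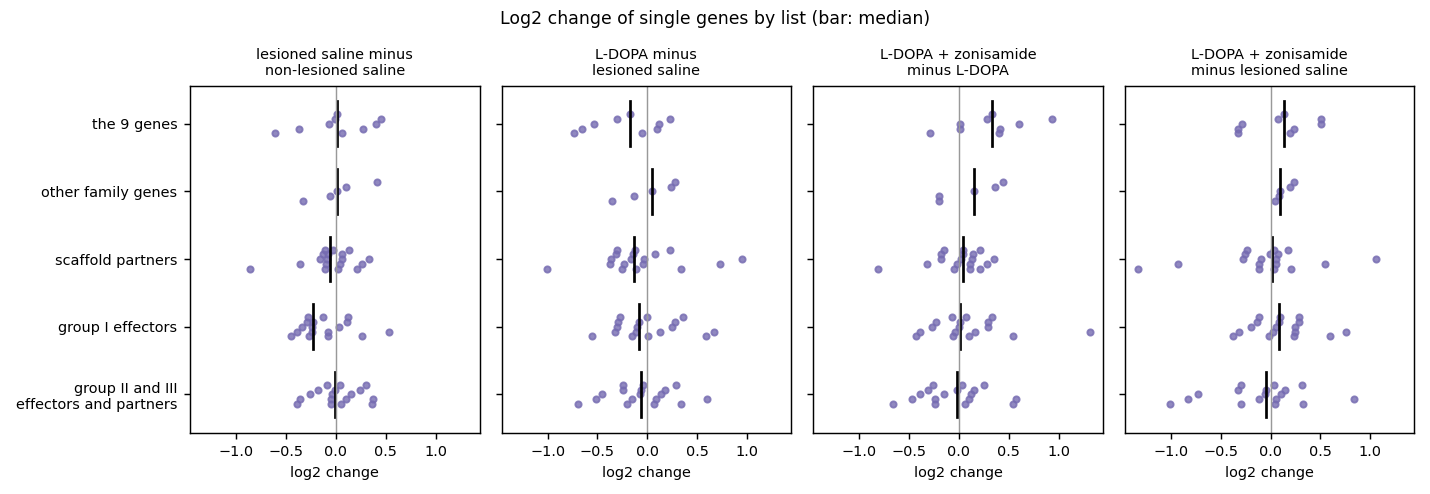
Log2 change (x axis) of single genes in each list, by comparison; a point is 1 gene and the bar is the median of the list. The bar of the 9 genes lies at 0.33 in the zonisamide panel, and no point in any panel passed the adjusted threshold.

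The features most like each gene were ranked by Pearson r over the 12 arrays, which share slides and groups, so these values are descriptions. Grm4 was most like Kiaa0408L (0.93) and Hcn2 (0.92), and Grm8 most like Thy1 and Trim3 (0.93 each). Grm2 was most like Arsa (0.92) and Necab3 (0.90), Grm7 most like Por and Slc18a2 (0.86 each), and Homer3 most like Sgms1 (0.91) and Fnbp1 (0.88). Homer2 was most like Csad (0.86) and St14 (0.83). For the 3 genes with an edge spot the nearest were Rplp2 and Clcn6 for Grm3 (0.86 each), Htr5b (0.88) and Pdcd4 (0.87) for Grm5, and Kctd4 (0.89) and Ube3d (0.88) for Shank3. Among the 9 genes themselves the highest r was 0.67, between Grm3 and Shank3, both with an edge spot.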

How the data were processed

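Per the labels' protocols, total RNA was labelled with Cy3 and hybridised to 1-colour arrays. Per the file headers, Agilent's Feature Extraction, version 10.7.3.1, made the authors' scanner files, whose deposited processed signal is an intensity, background-subtracted and not scaled between arrays. The deposited series table held the same intensity on all 62976 spots of each array (relative tolerance 1e-06). Outlier and control spots were left out, log2 values of a probe's spots were averaged and each array's 75th percentile was subtracted. Probes well above background on all 3 arrays of a group were tested (19412 features, the brightest probe standing for a gene); symbols came from RefSeq accessions. limma 3.58.1 in R 4.3.3 fitted 1 model to 12 arrays (8 residual degrees of freedom), two-sided, with Benjamini-Hochberg adjustment and a threshold of 0.05. The procedure was tested on simulated data drawn independently for each array, without slide or edge-spot effects. An exact permutation test of 3 against 3 cannot go below p = 0.1.

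In the zonisamide comparison deviations of same-numbered arrays, which share slides, correlated at 0.37, 0.19 and 0.25, so the numbers pair them; elsewhere not all did. The design names 3 animals per group, and p-values measure the spread between these arrays. The 5 slides served as blocks. Alternatives were other normalizations (among them normexp with offset 50 on the deposited median spot intensity), probe filters, blocks and leaving out each array; edge spots left out, the brightest spot, Ttr as a covariate and leaving out replicate 3 of both drug groups were added after seeing the data. Genes and lists were chosen with earlier results of these data known. Named genes are the 9, the 1 or 2 of smallest p in each list, and the 2 most alike by r; some genes that this rule names are not reported here. Marker genes appear only beside a result. Figures were drawn with matplotlib 3.10.9.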

Additional observations from a re-analysis of the deposited data

How the results depend on the processing

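None of the 9 genes passed in any of the 4 comparisons under any alternative run. The replicate block, which pairs arrays only in the zonisamide comparison, left 13 features there and 34 for L-DOPA, against 93 and 84, and changed no call of the 9 genes. The numbers of features passing for L-DOPA and for zonisamide were 30 and 8 with normexp, 48 and 45 with no filter on dim probes, 0 and 0 with only the 2 groups compared (2582 and 1962 at an unadjusted p under 0.05), 0 and 0 with slide as a fixed block in limma (1649 and 2743 unadjusted), and 0 and 10 with Ttr as a covariate (1163 unadjusted for L-DOPA). With slide as a random block 188 passed for zonisamide, and with the brightest spot 1 passed for the lesion. Without replicate 3 of both drug groups, 2 features passed for the lesion, 8 for L-DOPA and 3 for zonisamide. Leaving out 1 array at a time gave 0 to 13 features for the lesion (808 to 2324 unadjusted), 2 to 210 for L-DOPA, 0 to 253 for zonisamide (1725 to 2909 unadjusted) and 0 to 3 for both drugs (599 to 1774 unadjusted). The L-DOPA count was lowest without lesioned saline replicate 1, the zonisamide count without replicate 2 of both drugs, and both were highest without L-DOPA replicate 1.

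Some changes turned sign, none past the threshold; the cause was not tested. Under quantile normalization Homer2 was -0.06 and Grm7 -0.13 for the lesion, and Homer3 0.04 for L-DOPA. Under normexp Homer3 was -0.09 and Homer2 -0.24 for the lesion, Homer3 0.13 for L-DOPA, and Grm5 0.02 and Shank3 -0.58 for both drugs; Shank3 kept its sign but was 1.34 for the lesion and -0.99 for L-DOPA, against 0.45 and -0.17 as reported. With the mean of its probes Grm4 was 0.00 for the lesion. With slide as a fixed block Grm5 was 0.00, Grm2 0.33, Grm3 -0.06, Homer2 -0.15 and Shank3 -0.05 for the lesion, Grm2 0.00 for L-DOPA, and Grm3 0.02 and Grm8 -0.17 for both drugs. With edge spots left out Grm3 was -0.34 and Shank3 -0.18 for the lesion, Shank3 0.30 for L-DOPA and -0.13 for zonisamide, and Grm3 0.19 for both drugs. With the brightest spot Grm3 was -0.29, Grm7 -0.24 and Shank3 -0.18 for the lesion, Homer3 0.15 and Shank3 0.30 for L-DOPA, Grm5 -0.01, Homer2 -0.03 and Shank3 -0.13 for zonisamide, and Grm3 0.14 for both drugs. With Ttr as a covariate Homer2 was -0.10 for L-DOPA. Without replicate 3 of both drug groups Grm2 was 0.00 and Shank3 0.14 for L-DOPA, and Grm3 -0.19 and Shank3 -0.05 for zonisamide.

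Leaving out 1 array at a time, the lesion change ranged from -0.19 to 0.05 for Grm2, -0.23 to 0.28 for Homer2, -0.22 to 0.20 for Grm4 and -0.08 to 0.19 for Grm7. The L-DOPA change ranged from -0.26 to 0.31 for Homer3, -0.02 to 0.27 for Grm2, -0.11 to 0.40 for Homer2 and -0.39 to 0.14 for Shank3. The zonisamide change ranged from -0.65 to 0.97 for Grm5, -0.07 to 0.63 for Grm3 and -0.33 to 0.34 for Homer2. That of both drugs ranged from -0.95 to 0.67 for Grm5, -0.21 to 0.46 for Homer2 and -0.15 to 0.23 for Grm8.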
